A study of Danio rerio with 6 samples.

Results

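The genes described here make up the Wnt ligand, receptor and antagonist group of the zebrafish embryo, measured by poly(A)-selected RNA sequencing after injection of a morpholino against wbp11. They were chosen by a rule on names, set with earlier results of these data known. It took every record of the deposited gene table whose symbol starts with wnt, fzd, sfrp, dkk or axin followed by a digit. It also took every symbol that starts with tcf7, together with lef1, lrp5 and lrp6. The rule found 59 of the 25432 records, and these split into 26 Wnt ligands, 14 frizzled receptors, 2 co-receptors, 10 secreted antagonists, 2 axins and 5 TCF/LEF factors. The study compared whole embryos given the wbp11 morpholino (wbp11-MO) with embryos given a control morpholino (control-MO), both collected at 72 hours post fertilization. Each group had 3 libraries, and each library was made from a pool of 50 embryos. All 6 libraries therefore share an injected morpholino and a whole-embryo origin. The labels used here do not state the strain, the morpholino's target site or its dose. Morpholinos are injected antisense oligomers; they block translation or splicing for a limited time, in the cells that received them, and leave the gene itself intact.

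Wnt proteins are secreted signals that bind frizzled receptors on the cell surface. In the canonical branch a frizzled joins the co-receptor Lrp5 or Lrp6, the axin complex stops marking beta-catenin for destruction, and beta-catenin enters the nucleus, where it works through TCF/LEF factors. Other Wnts act without beta-catenin, through the planar polarity machinery that orients cells. Secreted Frizzled-related proteins and Dickkopf proteins limit signalling outside the cell. In the zebrafish embryo the pathway is known for patterning the brain, driving cell movements in gastrulation, and shaping fins, cartilage, liver and blood.

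The libraries held between 11219706 and 13669995 counted reads, and the Wnt genes took 0.148% to 0.157% of them. Pearson correlation of log2 values between libraries was 0.985 to 0.988 within groups and 0.894 to 0.904 between them. wbp11 itself, listed under 2 records, showed no fall. Its chromosome 3 record stood at 0.72 ± 0.12 (log2 fold change ± SE) with an edgeR adjusted p of 4.7e-06, and its record on the scaffold KN150013.1 at 0.30 ± 0.16 with an edgeR adjusted p of 0.10. The transcript level of wbp11 thus does not check the labels, and every direction below refers to the libraries labelled wbp11-MO. Markers of several tissues moved between the groups, and none of the 46 markers examined was at 0. The summed markers of neurons were 1084 to 1172 CPM (read counts scaled to the library total after its correction by edgeR's TMM factor) in wbp11-MO, against 2021 to 2070 CPM in control-MO, with 6 of 7 lower. Those of cartilage were 3319 to 3440 CPM in wbp11-MO and 5744 to 6367 CPM in control-MO, with 6 of 6 lower. The 5 endoderm markers summed to 56.2 to 72.0 CPM in wbp11-MO and 343 to 379 CPM in control-MO, and the 4 photoreceptor markers to 28.3 to 52.7 CPM in wbp11-MO and 2156 to 2426 CPM in control-MO, with all 9 lower. Proliferation markers went the other way, at 1509 to 1582 CPM in wbp11-MO and 976 to 1023 CPM in control-MO, with 7 of 7 higher. Skeletal muscle markers were also higher in 4 of 5, summing to 15626 to 17109 CPM in wbp11-MO and 10627 to 11576 CPM in control-MO. The 4 endothelial markers summed to 161 to 165 CPM in wbp11-MO and 159 to 172 CPM in control-MO, with 1 higher and 0 lower. Epidermis markers split, with 2 of 5 higher and 3 lower, as did notochord markers, with 1 of 3 higher and 1 lower. In whole embryos, fewer cells of a type and less RNA per cell cannot be told apart, and the part of these tissue differences in the Wnt results was not tested.

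Of the 59 Wnt records, 56 had enough counts to be tested, and 31 of them passed an adjusted p of 0.05 in edgeR's quasi-likelihood test. In wbp11-MO 17 were higher and 14 were lower. Among all 20012 genes tested, 61.7% passed this test, 30.5% higher and 31.2% lower, so the Wnt shares of 30.4% higher and 25.0% lower stand near or under the shares of all genes. The median log2 fold change was 0.03 over the Wnt genes and 0.00 over all genes. With libraries scaled by their totals it was -0.04 over the Wnt genes and -0.07 over all genes. The median size regardless of sign was 0.33 for the Wnt genes and 0.45 for all genes. Changes of 2-fold or more that passed the test made up 6 of 56 Wnt genes, or 10.7%, and 20.2% of all genes. The groups did not overlap in 32 of the 56, with wbp11-MO above in 18 and below in 14, while over all genes 32.3% lay above and 33.1% below. By role, co-receptors and axins were higher (2 of 2 in each role), and the ligands and the frizzleds each held genes that moved both ways. No antagonist was higher while 4 of 10 were lower, or 40.0% against 31.2% of all genes. Of those lower antagonists, sfrp1a and sfrp1b lost their calls without single libraries.

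**Figure D1:**
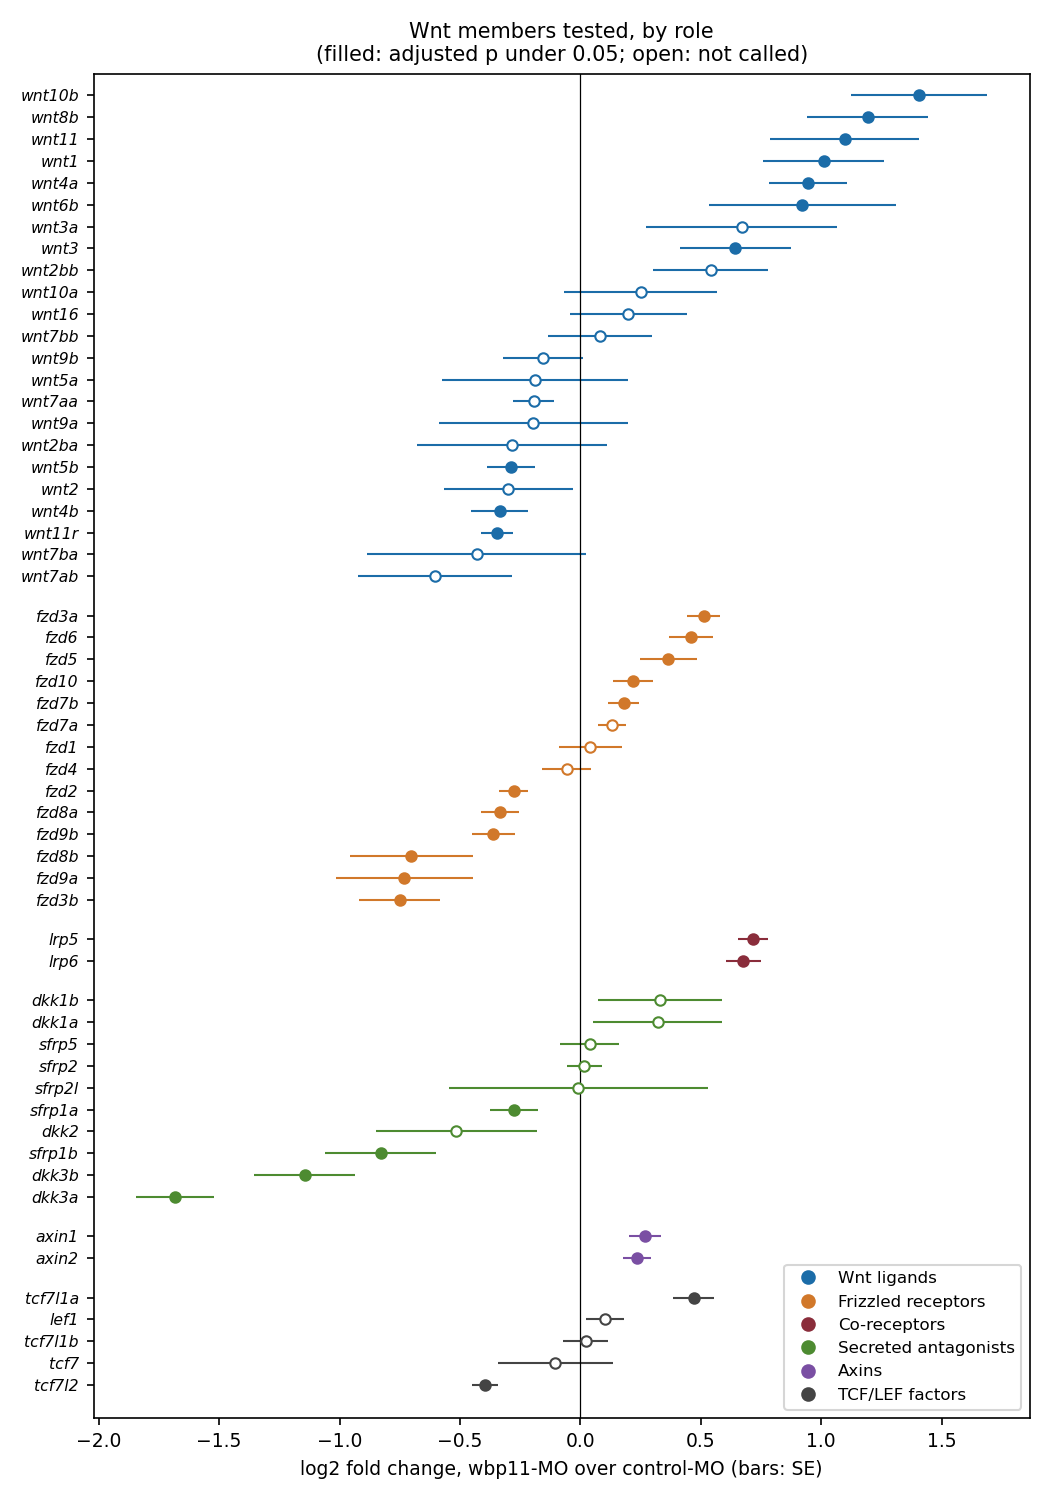
Log2 fold change of each tested Wnt gene, wbp11-MO over control-MO, with its SE (edgeR, 3 libraries a group), ordered within 6 roles. Filled points passed an adjusted p of 0.05 and open points did not; the values run from -1.68 for dkk3a to 1.41 for wnt10b, and 17 filled points lie right of 0 and 14 left of it.

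Among the 23 ligands tested, 7 rose (wnt10b, wnt8b, wnt11, wnt1, wnt4a, wnt6b and wnt3), 3 fell (wnt11r, wnt4b and wnt5b) and 13 did not pass the test. That is 30.4% higher and 13.0% lower, against 30.5% and 31.2% of all genes. In control-MO embryos the ligands that rose lay between 0.556 and 3.01 FPKM, and the ligands that fell between 8.36 and 31.7 FPKM. The 3 falls were small (log2 fold changes of -0.29 to -0.35), and the part of read counts in this contrast was not tested. Scarce ligands had larger values of either sign that did not pass, as in wnt7ab (-0.60 ± 0.32, edgeR adjusted p = 0.10) and wnt3a (0.67 ± 0.40, edgeR adjusted p = 0.14). The largest rise belonged to wnt10b, a ligand of the midbrain-hindbrain boundary, with 3.54, 5.25 and 6.49 CPM in wbp11-MO, against 2.33, 1.62 and 1.75 CPM in control-MO. The groups did not overlap, and the log2 fold change was 1.41 ± 0.28 (edgeR adjusted p = 7.8e-05), a 2.65-fold rise. wnt1, which is expressed at the same boundary and along the dorsal neural tube, had 4.43, 5.09 and 5.19 CPM in wbp11-MO, against 2.63, 2.39 and 2.26 CPM in control-MO. Its log2 fold change was 1.01 ± 0.25 (edgeR adjusted p = 8.7e-04), and every wbp11-MO library lay above every control-MO library. These genes are neighbours in GRCz11: wnt10b lies at chr23:27641471-27647769 on the minus strand and wnt1 at chr23:27652906-27658054 on the plus strand, so that they point away from each other across 5136 bases.

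wnt8b, a ligand known from patterning of the forebrain, had 5.98, 4.93 and 5.19 CPM in wbp11-MO, against 2.77, 2.05 and 2.19 CPM in control-MO. That is a log2 fold change of 1.19 ± 0.25 (edgeR adjusted p = 1.3e-04), again with no overlap. wnt4a, whose mammalian counterpart Wnt4 is known from kidney and gonad development, had 14.3, 10.8 and 12.9 CPM in wbp11-MO, against 6.13, 6.91 and 6.71 CPM in control-MO. It rose by 0.95 ± 0.16 on the log2 scale (edgeR adjusted p = 7.6e-06), the smallest adjusted p among the ligands. wnt11 (newer symbol wnt11f2), the gene of the silberblick mutant in which cells fail to converge and extend, was less even, with 5.91, 5.49 and 2.92 CPM in wbp11-MO, against 1.6, 1.53 and 3.50 CPM in control-MO. The third wbp11-MO library lay below the third control-MO library, so the groups overlapped, although the gene passed the test (log2 fold change 1.10 ± 0.31, edgeR adjusted p = 0.0029) and stayed past it without each library in turn.

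The other ligands that rose were wnt3 and wnt6b, both thinly counted, as were wnt10b, wnt1, wnt8b and wnt11. wnt3 had 5.61, 5.17 and 5.84 CPM in wbp11-MO, against 3.57, 4.35 and 2.77 CPM in control-MO (log2 fold change 0.64 ± 0.23, edgeR adjusted p = 0.017). wnt6b had 2.29, 1.70 and 2.11 CPM in wbp11-MO, against 1.53, 0.938 and 0.729 CPM in control-MO (log2 fold change 0.92 ± 0.39, edgeR adjusted p = 0.040). Neither gene's groups overlapped, but both calls rested on single libraries. The edgeR adjusted p of wnt3 was 0.052 without the third wbp11-MO library and 0.098 without the third control-MO library, in a range of 0.0079 to 0.098 over all alternatives. That of wnt6b was 0.12 and 0.091 without the first and the third wbp11-MO library and 0.10 and 0.17 without the second and the third control-MO library. It was 0.059 when libraries were scaled by their totals and 0.072 in DESeq2, in a range of 0.020 to 0.17.

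wnt11r, a ligand known from muscle and heart formation, was the most abundant Wnt of these embryos at 23.7 ± 1.09 FPKM in wbp11-MO and 31.7 ± 1.32 FPKM in control-MO (SD, n = 3 each; FPKM is the read count scaled for gene length and library total). It had 51.8, 55.7 and 51.0 CPM in wbp11-MO, against 64.8, 66.2 and 70.3 CPM in control-MO. The groups did not overlap, and wnt11r fell by 0.35 ± 0.07 on the log2 scale (edgeR adjusted p = 5.4e-05). wnt4b, a floor plate ligand, had 13.8, 15.7 and 13.3 CPM in wbp11-MO, against 17.5, 18.8 and 17.9 CPM in control-MO. Its log2 fold change was -0.34 ± 0.12 (edgeR adjusted p = 0.016), and without the third wbp11-MO library the adjusted p was 0.063, in a range of 0.0049 to 0.063. wnt5b, the pipetail gene that acts without beta-catenin in tail extension and cartilage, had 27.5, 26.9 and 24.2 CPM in wbp11-MO, against 34.7, 33.8 and 27.5 CPM in control-MO. In wnt5b the third control-MO library was level with the highest wbp11-MO library. wnt5b passed the test (log2 fold change -0.29 ± 0.10, edgeR adjusted p = 0.014), but not without the third wbp11-MO library (0.073), the first control-MO library (0.095) or the second (0.052), in a range of 0.0019 to 0.095.

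Summed on the FPKM scale, the most abundant ligands and those that rose had different shares of the total in the 2 groups. The 5 ligands with the highest level in control-MO (wnt11r, wnt5b, wnt7aa, wnt4b and wnt9b) summed to 57.6 ± 4.17 FPKM in wbp11-MO and 74.1 ± 3.28 FPKM in control-MO. They made up 59.9 ± 1.85% of all ligand FPKM in wbp11-MO and 71.6 ± 0.935% in control-MO (SD, n = 3 each). The 7 ligands that rose, each at 0.556 to 3.01 FPKM in control-MO, summed to 20.5 ± 0.797 FPKM in wbp11-MO and 10.8 ± 0.356 FPKM in control-MO, a share of 21.4 ± 1.43% in wbp11-MO and 10.5 ± 0.268% in control-MO. Because these sets were taken from the same libraries, the sums are a description. Over all 26 ligands the summed level was 209.6 ± 10.03 CPM in wbp11-MO and 218.7 ± 2.06 CPM in control-MO. The libraries had 215.1, 215.6 and 198.0 CPM in wbp11-MO, against 220.1, 219.6 and 216.3 CPM in control-MO, so every wbp11-MO library lay lower, by little in 2 of them.

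**Figure D2:**
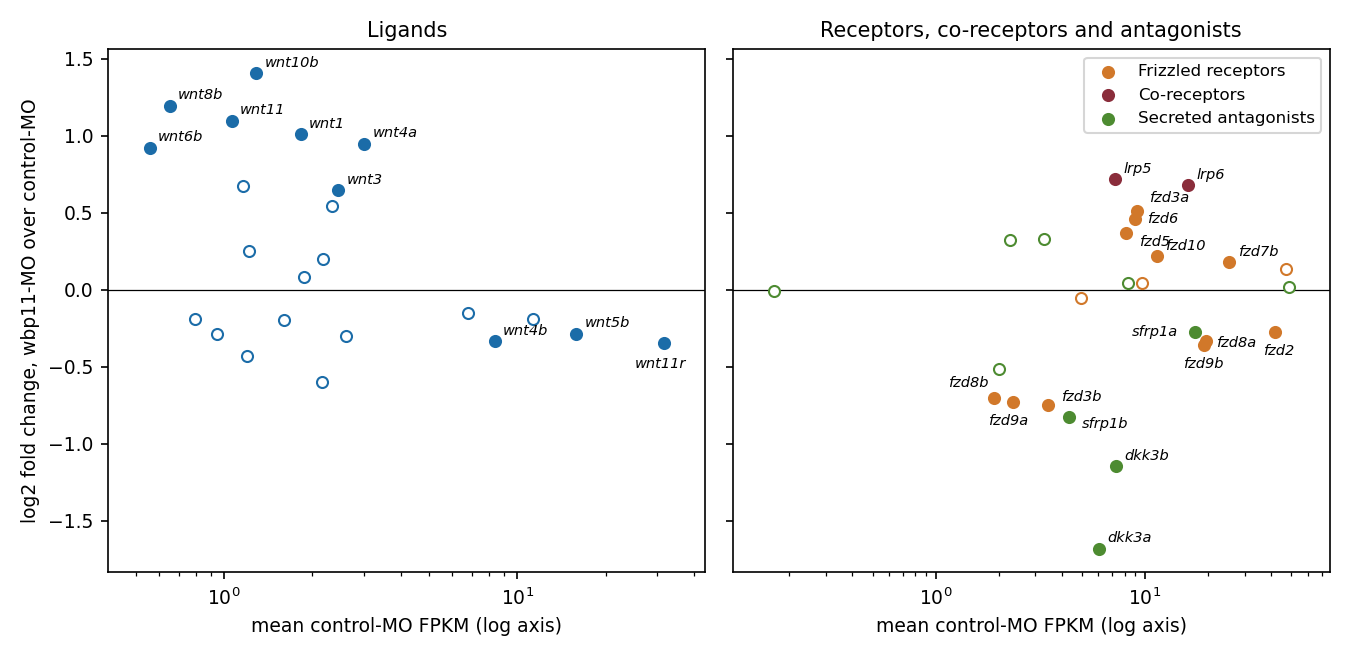
Mean control-MO level in FPKM (log axis) against log2 fold change, wbp11-MO over control-MO, for each tested ligand (left) and each receptor, co-receptor and antagonist (right); filled points passed an edgeR adjusted p of 0.05. The 7 ligands that rose lie between 0.556 and 3.01 FPKM, while wnt11r, at 31.7 FPKM in control-MO, lies below 0. Changes as small as that of wnt11r could hardly pass in the scarce ligands.

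The 13 ligands that did not pass the test had log2 fold changes from -0.60 for wnt7ab to 0.67 for wnt3a. wnt7bb had the value nearest 0, at 6.20, 6.14 and 4.87 CPM in wbp11-MO, against 6.86, 4.09 and 5.25 CPM in control-MO (log2 fold change 0.08 ± 0.22, edgeR adjusted p = 0.76). For 2 of the 13 the groups did not overlap. wnt7aa, which directs the growth of brain vessels, had 32.5, 36.6 and 30.8 CPM in wbp11-MO, against 39.1, 37.2 and 37.8 CPM in control-MO (log2 fold change -0.19 ± 0.09, edgeR adjusted p = 0.051). Its adjusted p ran from 0.0095 to 0.19 over the alternatives and passed in 6 of them. wnt2bb, the prometheus gene of liver specification, had 4.36, 5.33 and 4.46 CPM in wbp11-MO, against 3.36, 2.90 and 3.43 CPM in control-MO (log2 fold change 0.54 ± 0.24, edgeR adjusted p = 0.051). The remaining 10 were wnt2, wnt2ba, wnt3a, wnt5a, wnt7ab, wnt7ba, wnt9a, wnt9b, wnt10a and wnt16, and in each the groups overlapped. Both wnt9a and wnt16, known from the emergence of blood stem cells, were in this set.

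Ligands that share a neighbourhood did not all share a call. wnt6b at chr9:11281969-11341315 and wnt10a at chr9:11379782-11409691 lie 38466 bases apart on the plus strand, and only wnt6b passed the test; wnt10a had a log2 fold change of 0.25 ± 0.32 (edgeR adjusted p = 0.51), and the difference between them was not tested. wnt3a and wnt9a lie 42425 bases apart on chromosome 2, and neither passed, with log2 fold changes of 0.67 ± 0.40 for wnt3a and -0.20 ± 0.39 for wnt9a. The 3 untested records were also ligands. wnt6a had 25 counts over the 3 wbp11-MO libraries and 28 over the 3 control-MO libraries, and the 2 wnt8a records on chromosome 14 had 1 count between them.

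Of the frizzled receptors 78.6% passed the test, against 61.7% of all genes, in both directions and by little. This difference in shares was not tested. Of 14 tested, 5 rose (fzd3a, fzd6, fzd5, fzd10 and fzd7b), 6 fell (fzd3b, fzd9a, fzd8b, fzd9b, fzd8a and fzd2) and 3 did not pass the test. No frizzled reached 2-fold, and the summed frizzled level was 600.8 ± 10.6 CPM in wbp11-MO and 579.4 ± 21.1 CPM in control-MO, where the library values overlapped. Summed as FPKM it was 203.1 ± 5.96 in wbp11-MO and 213.1 ± 11.5 in control-MO, so its direction depended on the scale. fzd3a, a planar polarity receptor of neurons and growing axons, had 88.5, 82.1 and 84.3 CPM in wbp11-MO, against 65.4, 58.7 and 54.7 CPM in control-MO (log2 fold change 0.51 ± 0.07, edgeR adjusted p = 1.1e-07). Its paralog fzd3b had 7.46, 6.86 and 6.90 CPM in wbp11-MO, against 10.4, 14.8 and 10.8 CPM in control-MO (log2 fold change -0.75 ± 0.17, edgeR adjusted p = 2.7e-04). In both genes the groups were apart, in opposite directions.

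fzd6, known in mammals from hair orientation, had 31.5, 35.1 and 36.3 CPM in wbp11-MO, against 25.5, 24.8 and 24.4 CPM in control-MO (log2 fold change 0.46 ± 0.09, edgeR adjusted p = 7.2e-05). fzd5, a receptor of the developing eye, had 19.9, 17.8 and 21.2 CPM in wbp11-MO, against 15.5, 16.4 and 13.9 CPM in control-MO (log2 fold change 0.37 ± 0.12, edgeR adjusted p = 0.0084). The fzd5 call was lost without the third wbp11-MO library (0.053) or the third control-MO library (0.051), in a range of 0.0059 to 0.053. Small rises of fzd7b and fzd10 completed the set. fzd7b had a log2 fold change of 0.18 ± 0.06 (edgeR adjusted p = 0.017), which was 0.10 without the first wbp11-MO library, 0.060 and 0.076 without the second and the third control-MO library, 0.052 with upper-quartile scaling and 0.16 with library totals (range 0.0074 to 0.16). fzd10 had 0.22 ± 0.08 (edgeR adjusted p = 0.022), which was 0.052 and 0.063 without the first and the second wbp11-MO library, 0.11 without the first control-MO library, 0.055 with upper-quartile scaling and 0.14 with library totals (range 0.022 to 0.14).

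The receptors that fell included fzd2, one of the most abundant, with 87.2, 80.8 and 79.4 CPM in wbp11-MO, against 96.9, 107 and 96.5 CPM in control-MO (log2 fold change -0.28 ± 0.06, edgeR adjusted p = 2.7e-04). fzd8a, a forebrain receptor, had 38.7, 37.4 and 42.3 CPM in wbp11-MO, against 47.0, 49.9 and 52.3 CPM in control-MO (log2 fold change -0.33 ± 0.08, edgeR adjusted p = 4.2e-04). fzd9b, the receptor paired with Wnt9a in blood stem cell development, had 26.4, 27.1 and 27.1 CPM in wbp11-MO, against 36.8, 33.2 and 33.3 CPM in control-MO (log2 fold change -0.36 ± 0.09, edgeR adjusted p = 8.2e-04). In these 3 genes every wbp11-MO library lay below every control-MO library. The scarcer fzd8b and fzd9a fell too, on calls that rested on single libraries. fzd8b had 3.62, 2.50 and 2.43 CPM in wbp11-MO, against 5.47, 4.35 and 4.16 CPM in control-MO (log2 fold change -0.70 ± 0.26, edgeR adjusted p = 0.018). Its call was lost without the second or the third wbp11-MO library (0.064 and 0.069) or the first control-MO library (0.10), in a range of 0.0082 to 0.10. fzd9a had 1.70, 2.99 and 2.60 CPM in wbp11-MO, against 3.50, 5.12 and 3.50 CPM in control-MO (log2 fold change -0.73 ± 0.28, edgeR adjusted p = 0.026). The fzd9a call was lost without the first wbp11-MO library (0.14) or the second control-MO library (0.15), in a range of 0.015 to 0.15.

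fzd7a was the most abundant frizzled, at 48.9 ± 2.18 FPKM in wbp11-MO and 47.0 ± 4.37 FPKM in control-MO. This receptor of gastrulation movements had 142, 140.1 and 134 CPM in wbp11-MO, against 118, 137 and 125 CPM in control-MO, with overlapping groups (log2 fold change 0.13 ± 0.06, edgeR adjusted p = 0.051). Without the second control-MO library its adjusted p was 0.0060, and over all alternatives it ran from 0.0060 to 0.42, passing in 3 of the 14. fzd1 stood nearest 0, with 15.6, 19.4 and 14.3 CPM in wbp11-MO, against 14.8, 17.9 and 15.2 CPM in control-MO (log2 fold change 0.04 ± 0.13, edgeR adjusted p = 0.80). fzd4, on the unplaced scaffold KN150617.1, was close by with -0.06 ± 0.10 (edgeR adjusted p = 0.65). Many frizzled genes have no intron: in 8 of the 14 (fzd1, fzd2, fzd5, fzd7a, fzd8a, fzd8b, fzd9b and fzd10) the gene length given in the table equals the genomic span. Of those 8, 2 rose and 4 fell, with a median log2 fold change of -0.12, and of the 6 others 3 rose and 2 fell, with a median of 0.06. Over all genes of the table, 17.4% of the 407 tested with length equal to span rose and 41.5% fell, against 30.8% and 31% of the 19605 with a longer span.

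The co-receptors rose together and by about the same amount. lrp5 had 121, 116 and 118 CPM in wbp11-MO, against 66.2, 77.0 and 73.0 CPM in control-MO (log2 fold change 0.72 ± 0.06, edgeR adjusted p = 1.4e-11), the smallest adjusted p of any Wnt gene here. lrp6 had 68.3, 67.4 and 74.6 CPM in wbp11-MO, against 40.3, 44.3 and 46.9 CPM in control-MO (log2 fold change 0.68 ± 0.07, edgeR adjusted p = 1.6e-09). Every wbp11-MO library stood well above every control-MO library in both. These proteins are needed for the canonical branch and not for most beta-catenin-independent signalling. Per unit length lrp6 was the more abundant, at 24.3 ± 1.23 FPKM in wbp11-MO and 16.0 ± 1.27 FPKM in control-MO, while lrp5 had 11.3 ± 0.404 FPKM in wbp11-MO and 7.23 ± 0.653 FPKM in control-MO. Both calls held under all 14 alternatives.

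**Figure D3:**
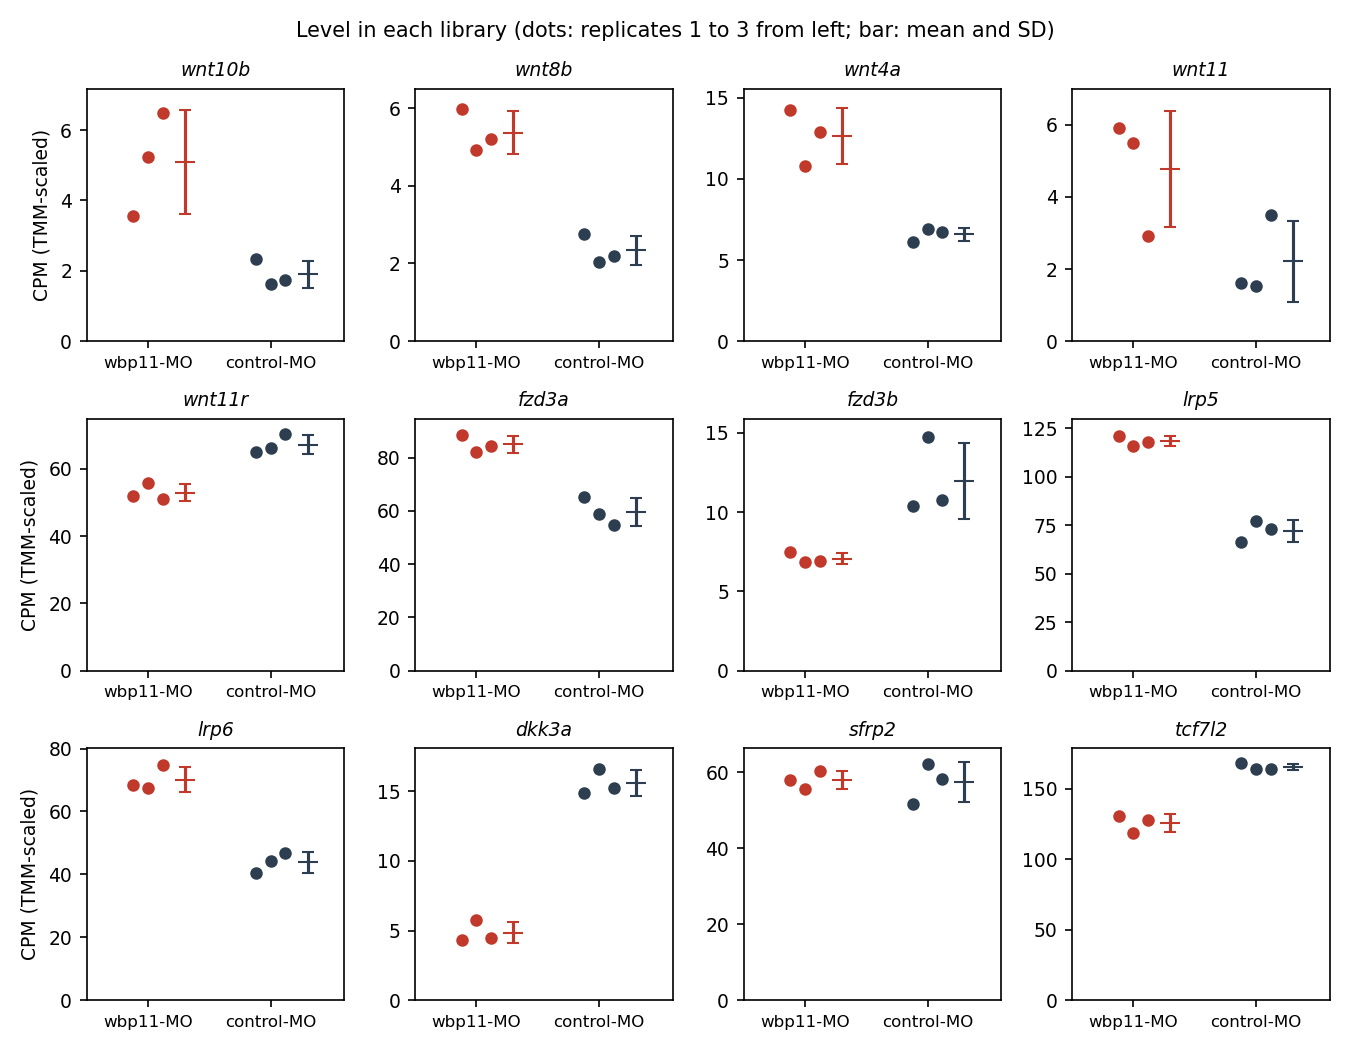
CPM in each library (points, replicates 1 to 3 from left) with the mean and SD of each group of 3, for 12 Wnt genes; every axis starts at 0. In wnt11 and sfrp2 the wbp11-MO and control-MO points overlap, and in the other 10 genes they are apart, as in dkk3a with 4.36 to 5.73 CPM in wbp11-MO and 14.9 to 16.6 CPM in control-MO.

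Among the 10 secreted antagonists, none rose, 4 fell and 6 did not pass the test. The share that fell was 40%, against 31.2% of all genes, and 30.5% of all genes rose. The largest fall of any Wnt gene belonged to dkk3a, a divergent Dickkopf whose binding to Lrp5 and Lrp6 is not established as it is for Dkk1. It had 4.36, 5.73 and 4.46 CPM in wbp11-MO, against 14.9, 16.6 and 15.2 CPM in control-MO. Its log2 fold change was -1.68 ± 0.16 (edgeR adjusted p = 1.9e-10), which is 3.21-fold lower. Its paralog dkk3b had 3.18, 4.36 and 3.25 CPM in wbp11-MO, against 6.93, 8.10 and 8.82 CPM in control-MO (log2 fold change -1.15 ± 0.21, edgeR adjusted p = 2.2e-05). No wbp11-MO library came near a control-MO library in either gene, and both calls held under every alternative. The classical Lrp5/6 antagonists dkk1a and dkk1b had log2 fold changes of 0.32 ± 0.27 and 0.33 ± 0.26 (edgeR adjusted p = 0.30 and 0.27), and dkk2 had -0.52 ± 0.33 (edgeR adjusted p = 0.18). The summed Dickkopf level was 18.6 ± 2.15 CPM in wbp11-MO and 32.8 ± 1.57 CPM in control-MO. Its fall lay mostly in dkk3a (mean 4.85 CPM in wbp11-MO and 15.6 CPM in control-MO) and dkk3b (3.59 and 7.95 CPM), so the sum does not describe dkk1a, dkk1b and dkk2.

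Frizzled-related proteins bind Wnts outside the cell, and 2 of the 5 passed the test, both lower. That is 40.0%, while 61.7% of all genes passed and 31.2% were lower. sfrp1b had 4.06, 3.15 and 3.81 CPM in wbp11-MO, against 8.53, 5.03 and 5.98 CPM in control-MO (log2 fold change -0.83 ± 0.23, edgeR adjusted p = 0.0025). Its call was lost without the first control-MO library, its highest (0.055, range 7.0e-04 to 0.055). sfrp1a had 26.1, 25.6 and 23.0 CPM in wbp11-MO, against 27.4, 33.6 and 29.7 CPM in control-MO (log2 fold change -0.28 ± 0.10, edgeR adjusted p = 0.017). Its call was lost without the third wbp11-MO library (0.082) or the second control-MO library (0.11, range 0.0046 to 0.11). sfrp2, the most abundant antagonist at 46.6 ± 1.94 FPKM in wbp11-MO and 48.6 ± 5.18 FPKM in control-MO, had 57.9, 55.6 and 60.4 CPM in wbp11-MO, against 51.8, 62.2 and 58.2 CPM in control-MO. The wbp11-MO values of sfrp2 lay inside the control-MO range (log2 fold change 0.02 ± 0.07, edgeR adjusted p = 0.87). sfrp5 had 0.04 ± 0.12 (edgeR adjusted p = 0.80). sfrp2l was nearest 0 but hardly counted, with 1.11, 1.21 and 0.243 CPM in wbp11-MO, against 0.438, 0.682 and 1.46 CPM in control-MO. Its log2 fold change of -0.01 had an SE of 0.54, the largest among the Wnt genes. Marker sums of several tissues, among them neurons, cartilage, endoderm and photoreceptors, were also lower in wbp11-MO as given above. Their part in these falls was not tested.

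Inside the cell, both axins rose slightly. axin1, the scaffold of the complex that marks beta-catenin, had 77.0, 82.0 and 83.8 CPM in wbp11-MO, against 70.5, 61.2 and 69.3 CPM in control-MO (log2 fold change 0.27 ± 0.07, edgeR adjusted p = 7.5e-04). axin2, which is both a scaffold and a feedback target of canonical signalling, had 91.0, 94.9 and 92.3 CPM in wbp11-MO, against 78.3, 80.1 and 77.9 CPM in control-MO (log2 fold change 0.24 ± 0.06, edgeR adjusted p = 9.1e-04). The groups did not overlap in either, and both calls held under all 14 alternatives.

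Of the 5 TCF/LEF factors 1 was higher and 1 lower, or 20.0% each way, against 30.5% and 31.2% of all genes. tcf7l2, the most abundant of the 5, had 130.5, 119 and 128 CPM in wbp11-MO, against 168, 164 and 164 CPM in control-MO (log2 fold change -0.40 ± 0.05, edgeR adjusted p = 2.3e-07). tcf7l1a, the headless gene whose repressor protein is needed to form the anterior brain, had 41.0, 45.0 and 39.8 CPM in wbp11-MO, against 32.2, 29.7 and 28.9 CPM in control-MO (log2 fold change 0.47 ± 0.09, edgeR adjusted p = 1.8e-05). In both genes the groups were apart. By FPKM, tcf7l2 made up 34.9 ± 1.12% of the TCF/LEF level in wbp11-MO and 45.1 ± 0.917% in control-MO, and tcf7l1a 28.1 ± 2.33% in wbp11-MO and 19.9 ± 0.898% in control-MO (SD, n = 3 each).

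The other 3 factors did not pass the test. lef1, an activator and itself a target of the pathway, had 47.3, 47.9 and 47.2 CPM in wbp11-MO, against 46.7, 39.3 and 46.5 CPM in control-MO (log2 fold change 0.10 ± 0.08, edgeR adjusted p = 0.26). The groups of lef1 did not overlap, but only its second control-MO library stood clearly lower. tcf7 had 5.17, 2.83 and 5.03 CPM in wbp11-MO, against 4.74, 4.86 and 4.45 CPM in control-MO (log2 fold change -0.10 ± 0.24, edgeR adjusted p = 0.73). tcf7l1b had 29.8, 27.7 and 31.3 CPM in wbp11-MO, against 27.5, 28.1 and 31.7 CPM in control-MO (log2 fold change 0.02 ± 0.09, edgeR adjusted p = 0.85).

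Zebrafish keep some Wnt genes as pairs left by genome duplication, and close relatives did not always move alike. Such duplicates can share a newer symbol, as fzd3a and fzd3b share FZD3. The letters a and b may not always mark them: wnt5a and wnt5b, wnt9a and wnt9b, and wnt10a and wnt10b have different newer symbols. Symbols alone do not settle this, because those of wnt4a (WNT4) and wnt4b (wnt4b) differ too. The pairs wnt11 with wnt11r, lrp5 with lrp6 and axin1 with axin2 were not taken as duplicates. For 19 pairs (genes with the same number and the letters a and b, plus wnt11 with wnt11r, lrp5 with lrp6 and axin1 with axin2) the log2 ratio of the first to the second was taken within each library, which removes any scaling between libraries. In 3 pairs one gene rose and the other fell, in 6 both had the same call, in 4 a single gene was called, in 5 neither was, and the wnt6 pair had an untested gene. Over all single genes 30.5% rose and 31.2% fell, and no share was taken for pairs of unrelated genes. These counts therefore do not show whether relatives move apart more or less often than other genes. wnt11 with wnt11r, not taken as duplicates, is among the 3 pairs with opposite calls. The ratios did not overlap between groups in 6 pairs. Over single genes 65.4% did not overlap in CPM, which is another measure, and no such share was taken for ratios of other genes. An exact two-sided permutation test of 3 against 3 libraries cannot go below p = 0.10, which these 6 pairs reached, and adjusted over the 19 pairs this was 0.32, so none passed.

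The largest difference of means was that of wnt11 over wnt11r, with log2 ratios of -3.13, -3.34 and -4.12 in wbp11-MO, against -5.34, -5.43 and -4.33 in control-MO, a difference of 1.5, although the third libraries of the groups lay close, at -4.12 in wbp11-MO and -4.33 in control-MO. wnt4a over wnt4b had log2 ratios of 0.05, -0.54 and -0.05 in wbp11-MO, against -1.51, -1.44 and -1.41 in control-MO, a difference of 1.28. wnt4a thus had nearly the CPM of wnt4b in wbp11-MO and well under it in control-MO. fzd3a over fzd3b had 3.57, 3.58 and 3.61 in wbp11-MO, against 2.66, 1.99 and 2.34 in control-MO, a difference of 1.26. Smaller differences that did not overlap were -1.16 for wnt10a over wnt10b, -0.54 for dkk3a over dkk3b and 0.45 for tcf7l1a over tcf7l1b. By contrast, lrp5 over lrp6 and axin1 over axin2 each differed by 0.04 between the groups, and their ratios overlapped. How reads that match both genes of a pair were counted is not given in the sources used here, so the split within a near-identical pair is uncertain.

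**Figure D4:**
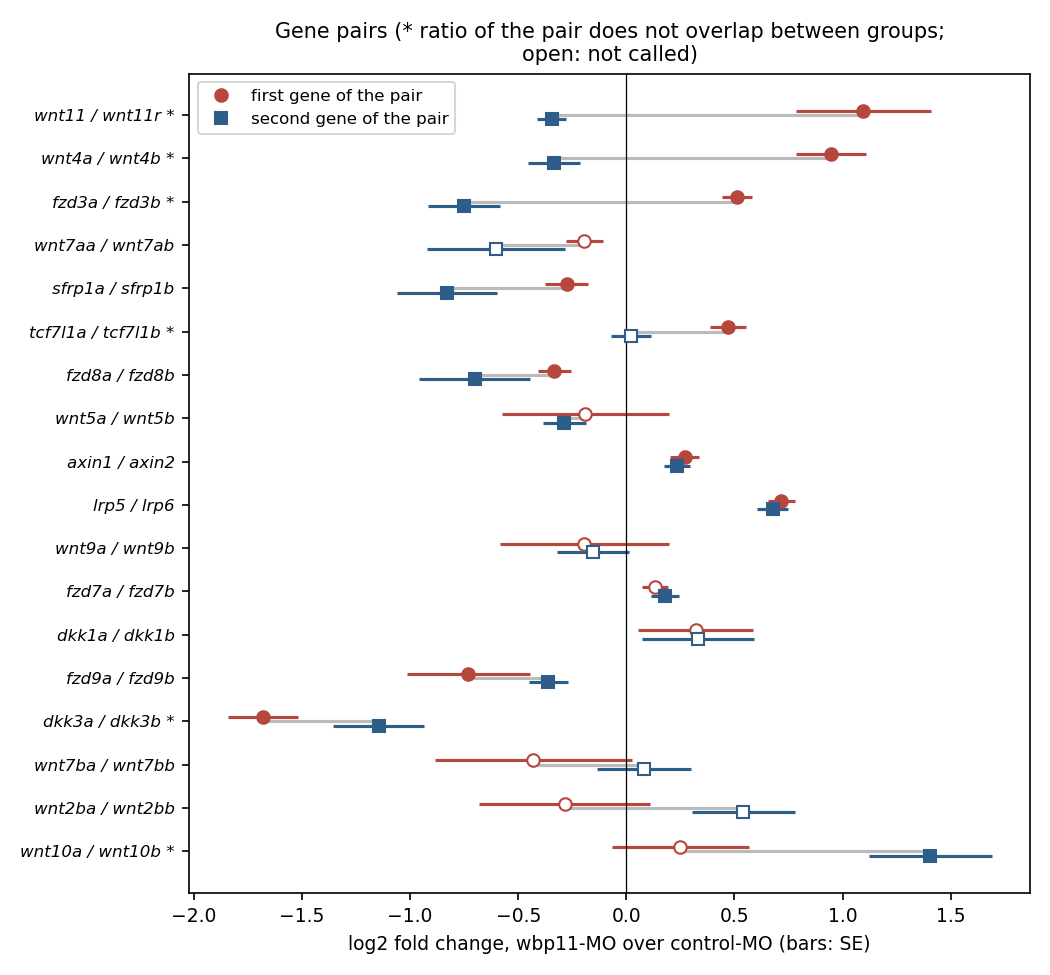
Log2 fold change, wbp11-MO over control-MO, with its SE (edgeR, 3 libraries a group), for both genes of the 18 pairs in which both were tested; open points did not pass an adjusted p of 0.05 and stars mark the 6 pairs whose within-library ratio did not overlap between the groups. wnt11, wnt4a and fzd3a lie right of 0 while wnt11r, wnt4b and fzd3b lie left of it.

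Other genes of the pathway were taken as a list of 94 symbols, chosen from textbook knowledge but with earlier results of these data known. Of these symbols, 85 were in the table. They gave 84 tested records, of which 40 rose and 23 fell in wbp11-MO, or 47.6% and 27.4%, against 30.5% and 31.2% of all genes. The median log2 fold change of the list was 0.17, and with libraries scaled by their totals it was 0.09, with 33 rises. Over all 20012 genes that scaling gave a median of -0.07 and 5243 rises. celsr2, a planar polarity cadherin, had 152, 140.4 and 141 CPM in wbp11-MO, against 47.0, 51.0 and 47.0 CPM in control-MO (log2 fold change 1.58 ± 0.06, edgeR adjusted p = 7.2e-20). A second record of that symbol, with fewer reads, also rose (1.87 ± 0.20, edgeR adjusted p = 1.6e-09). The records overlap on the plus strand of chromosome 22 (413349-465663 and 465269-468437). They may be parts of the same gene, although each is counted among the 40 rises. tle2a, a Groucho-type co-repressor that TCF factors recruit, had 179, 191 and 182 CPM in wbp11-MO, against 86.8, 83.0 and 84.1 CPM in control-MO (log2 fold change 1.12 ± 0.06, edgeR adjusted p = 2.5e-17). ccnd1, a cyclin used as a reporter of the pathway and also a general gene of the cell cycle, had 344, 328 and 331 CPM in wbp11-MO, against 154, 158 and 152 CPM in control-MO (log2 fold change 1.11 ± 0.05, edgeR adjusted p = 3.2e-18). In each of these the wbp11-MO libraries stood at about double the control-MO libraries or more. The proliferation markers rose in the same libraries, and their part in the ccnd1 value was not tested.

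Among the list's falls, frzb, a secreted Wnt antagonist of the cartilage, was the clearest, with 6.65, 5.90 and 6.17 CPM in wbp11-MO, against 28.2, 22.4 and 27.5 CPM in control-MO (log2 fold change -2.06 ± 0.13, edgeR adjusted p = 2.4e-14). The cartilage markers fell in the same libraries, and their part was not tested. apc, a scaffold of the destruction complex, had 202, 189.8 and 199 CPM in wbp11-MO, against 291, 300.4 and 281 CPM in control-MO (log2 fold change -0.56 ± 0.05, edgeR adjusted p = 5.1e-11). prickle2a, a planar polarity protein, had 12.2, 10.9 and 6.33 CPM in wbp11-MO, against 23.2, 28.7 and 23.5 CPM in control-MO (log2 fold change -1.35 ± 0.15, edgeR adjusted p = 5.1e-09). These 3 falls and the 3 rises above held under every alternative.

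By step of the pathway, the R-spondin group, whose members set how much frizzled stays at the membrane, had 4 rises and 0 falls among 5 tested. A sixth member, rspo4, was too scarce to be tested and stood lower, with 1 count over the wbp11-MO libraries and 34 over the control-MO libraries. rspo1 rose by 1.80 ± 0.21 on the log2 scale (edgeR adjusted p = 6.2e-09) and znrf3, a ligase that removes frizzleds and is itself a feedback target, by 0.78 ± 0.11 (edgeR adjusted p = 4.4e-07). Other receptors had 5 rises and 1 fall among 8, cytoplasmic genes 6 rises and 8 falls among 24, nuclear genes 7 and 3 among 11, and planar polarity genes 9 and 3 among 15. Over all genes 30.5% rose and 31.2% fell. Other secreted antagonists had 4 rises and 4 falls among 10, unlike the 0 and 4 of the sfrp and dkk genes; this difference was not tested. The 9 reporter genes also went both ways, with 4 rises (ccnd1, myca, mycb and tbxta) and 3 falls. The falls were sp5l at -2.05 ± 0.30 (edgeR adjusted p = 6.9e-07), cdx1a at -2.01 ± 0.33 (edgeR adjusted p = 3.9e-06) and sp5a at -0.73 ± 0.16 (edgeR adjusted p = 1.6e-04), while axin2, described above, rose by 0.24. cdx1a is also a gene of the gut, whose markers fell in the same libraries, and their part was not tested.

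**Figure D5:**
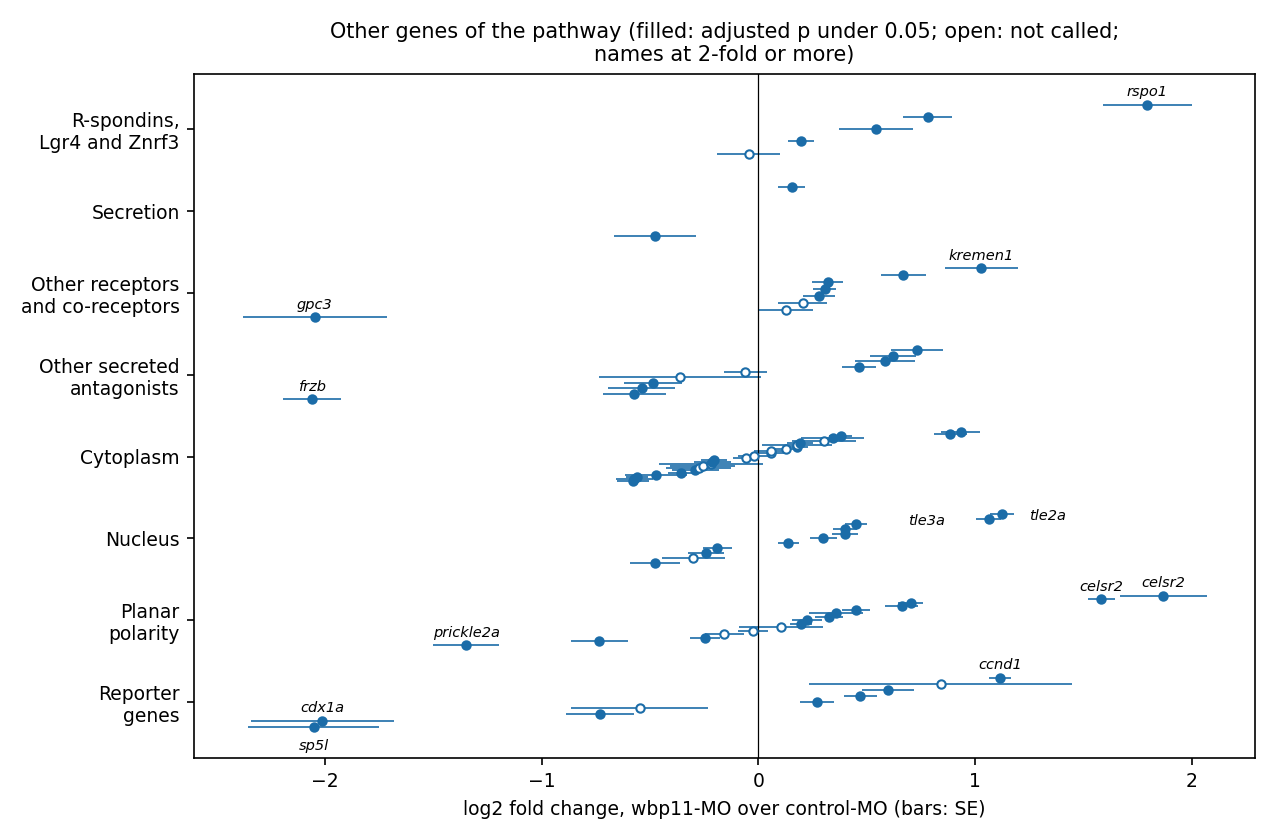
Log2 fold change, wbp11-MO over control-MO, with its SE (edgeR, 3 libraries a group) for the 84 tested records of the pathway list, in 8 steps; filled points passed an adjusted p of 0.05. Of the filled points 40 lie right of 0 and 23 left of it, and the reporter genes run from -2.05 for sp5l to 1.11 for ccnd1.

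The precision of these values followed abundance. Of the tested Wnt genes, 23 averaged under 5 CPM, 16 of them ligands, and 8 of these passed the test, with a median SE of 0.28 on the log2 scale. The other 33 had a median SE of 0.09, and 23 of them passed. Over all genes 61.7% passed, and no share was taken for other genes of like abundance. For the scarce ligands a change of under 2-fold was therefore often not detectable at this depth. Of the 31 calls, 20 held under all 14 alternatives, among them wnt10b, wnt8b, wnt4a, wnt1, wnt11, wnt11r, fzd3a, fzd3b, both co-receptors, both axins, dkk3a, dkk3b, tcf7l1a and tcf7l2.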

How the data were processed

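Per the file headers, the deposited table gives raw read counts and FPKM for every gene in every library. Quality control with FastQC 0.12.1, counting with HTSeq 2.0.5 and the build GRCz11 are named in the submitters' processing notes. The aligner, annotation release and strand setting were not given in the sources, so reads of a gene and of an antisense neighbour could be mixed. The deposited FPKM values equal count over gene length and column total, and served to compare levels between genes. They also gave sums and shares within roles, without TMM factors. Tests were run on the raw counts as deposited, with edgeR 4.0.16 (R 4.3.3): filterByExpr, TMM scaling, the quasi-likelihood F-test and Benjamini-Hochberg adjustment over 20012 genes, at a threshold of 0.05. CPM are TMM-scaled. An SE is the log2 fold change over the square root of its F statistic. Libraries of a group differed by more than sampling noise (chi-square per degree of freedom 2.59 to 3.93), so none was treated as a duplicate. The labels call them biological replicates and do not say whether the pools came from separate clutches, so p-values measure the spread between these pools.

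The members and lists were chosen with earlier results of these data known. In each role the text gives up to 5 called genes per direction with the smallest adjusted p, the 2 with the highest FPKM, every axin, lrp and TCF/LEF gene, the gene nearest 0, and paralogs. In the pathway list it gives 3 per direction. Other genes given with values were chosen after those were seen. Alternatives were RLE factors, upper-quartile factors, no filter, a CPM filter (1 in 3 libraries), blocking on the replicate number, dropping single libraries, DESeq2 1.42.0 and voom in limma 3.58.1. Library totals without TMM were added after seeing the data. The fit was also run on simulated counts in which 200 of 20012 genes were changed. There edgeR called 58 of 67 genes changed 2-fold and 15 of 19812 unchanged genes. In the data 61.7% of genes passed, so the simulation does not test the fit under so wide a change.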

Additional observations from a re-analysis of the deposited data

How the results depend on the processing

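Of the 31 Wnt genes that passed the edgeR test, 20 passed under all 14 alternatives, and no called gene changed direction. The number of Wnt genes higher in wbp11-MO ran from 14 to 18 and the number lower from 11 to 15. For the pathway list these were 33 to 40 and 19 to 25, and over all genes 11528 to 12720 passed. Scaling by library totals without TMM factors was an alternative added after seeing the data. It lowered the median log2 fold change to -0.0409 over the Wnt genes, 0.0939 over the pathway list and -0.0705 over all genes. With library totals 4 uncalled genes also turned sign, sfrp2 to -0.0578, tcf7l1b to -0.0495, fzd1 to -0.0323 and sfrp5 to -0.0321, and with upper-quartile factors sfrp2 turned to -0.0198 and tcf7l1b to -0.0126.

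Leaving out single libraries turned the sign of 10 uncalled genes, whose log2 fold changes ran from -0.0951 to 0.1263 (fzd1), -0.2592 to 0.123 (tcf7), -0.3369 to 0.6257 (sfrp2l), -0.0558 to 0.0746 (sfrp2), -0.0204 to 0.1067 (sfrp5), -0.0232 to 0.0891 (tcf7l1b), -0.4566 to 0.2241 (wnt9a), -0.3802 to 0.0201 (wnt9b), -0.0762 to 0.2898 (wnt7bb) and -0.1413 to 0.0419 (fzd4). The cause was not tested. Same-numbered libraries did not deviate together (correlations -0.022, -0.038 and 0.01), so no pairing by number was seen. With 3 libraries a group this does not settle whether same-numbered pools came from the same clutch, which the labels do not state. With a replicate block 17 Wnt genes were higher and 14 lower, and 12096 of all genes passed. With 3 pools a group at this depth, changes of scarce ligands are the least certain.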
